A study of Mus musculus with 12 samples.

Results

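The expression of 44 genes of the NRF2 and antioxidant system was examined in primary brain endothelial cells (BECs) from Cort+/+ and Cort-/- mice. The genes were picked by symbol, with earlier results of these data known. They comprise the transcription factor NRF2 (Nfe2l2), its relative Nfe2l1 and its repressor Keap1, known targets of NRF2, and the enzymes that remove superoxide, peroxides and electrophiles. All 44 were listed in both deposited tables, among 32419 genes in all. RNA-seq was performed in 4 groups, namely BECs of each genotype kept under normoxia and normoglycaemia (NX/NG, 24 h at 21% O2 with 5.5 mM glucose) and BECs of each genotype after oxygen-glucose deprivation (4 h at 1% O2 without glucose or serum) and 20 h of reoxygenation (OGD-R). The labels call these environments NM and OGD and the genotypes WT and KO. They give the strain C57BL/6 for every sample, and also a stroke model (MCAO) as disease state for every sample, the NX/NG cultures included, whereas the methods describe treatment in culture. The Cort deletion was present in the whole mouse and not restricted to the endothelium. Each replicate was a pool from 3 mice. Under NX/NG, Cort+/+ replicates 1 to 3 and Cort-/- replicates 1 and 2 were used. After OGD-R, Cort+/+ replicates 1 to 3 and Cort-/- replicates 1 and 3 were used, and the remaining Cort-/- replicate of either environment was not analysed here.

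The tables give RPKM (read numbers divided by gene length and library size). Levels of different genes therefore also depend on the deposited gene length, such as 1340 bases for Ftl1, 3469 for Fth1 and 10008 for Sod2. Whether these lengths fit the transcripts present was not tested. Between 12386048 and 12390428 reads lay on genes in each library, and the members held from 29 (Mt2) to 25708 reads (Ftl1) in a library. Cort itself had 0 reads in all 4 Cort-/- libraries and 0 to 2 reads in the Cort+/+ libraries, so its level could not check the genotype at this depth. In 2 libraries, Cort+/+ OGD-R replicate 1 and Cort-/- OGD-R replicate 3, under 1% of reads came from the ribosomal RNA gene Rn18s-rs5. The share was 7.64% to 15.8% in the other 8, and low in ribosomal RNA refers to this gene alone. Results after OGD-R are therefore given with and without these 2 libraries where such a fit was run. The 8 endothelial markers were present in every library (summed level 870 to 1351 RPKM), but so were the 4 smooth muscle markers (995 to 1777 RPKM) and 6 fibroblast markers (83.6 to 342 RPKM). The summed levels of astrocyte, oligodendrocyte and neuron markers stayed below 1 RPKM. In such bulk samples, fewer cells of a type and less RNA per cell cannot be told apart.

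NRF2 is a transcription factor of the cap'n'collar family that is held in the cytoplasm and sent for degradation by KEAP1. Oxidants and electrophiles modify cysteines of KEAP1, NRF2 then accumulates, pairs with a small MAF protein and binds antioxidant response elements (AREs) in the promoters and enhancers of its targets. These targets make and recycle glutathione and thioredoxin, conjugate electrophiles, reduce quinones, degrade heme and store the iron that this releases. Because NRF2 is controlled mainly by protein turnover, its own mRNA need not follow its activity. In the vessel wall, superoxide dismutases, catalase, glutathione peroxidases and peroxiredoxins remove superoxide and peroxides, while NOX4 is an NADPH oxidase that makes hydrogen peroxide. Reoxygenation after ischaemia is a classical source of oxidants in brain endothelium.

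The members spanned a wide range of levels. With the 10 libraries scaled together, the mean level was highest for Ftl1 (1103 RPKM) and Fth1 (212 RPKM), the light and heavy chains of the iron store ferritin. Ftl1 ranked 26th among all genes under NX/NG and 24th after OGD-R. They were followed by the peroxiredoxin Prdx1 (171 RPKM), the cytosolic glutathione peroxidase Gpx1 (139 RPKM), thioredoxin Txn1 (136 RPKM) and the inducible heme oxygenase Hmox1 (134 RPKM). From Fth1 downward the ranges of neighbours in this order overlapped over the 10 libraries, so that of these 6 genes only Ftl1 stood apart. The reads of Ftl1 are themselves uncertain, because 54.4% of its sequence words are shared with other genes. Its level and its ranks among all genes are therefore uncertain too. At the other end stood the cystine importer subunit Slc7a11 (1.70 RPKM) and the extracellular superoxide dismutase Sod3 (1.64 RPKM), and between cytosolic Sod1 (34.2 RPKM) and mitochondrial Sod2 (2.96 RPKM) no library overlapped. Constitutive Hmox2 was at 23.9 RPKM, below the lowest library of Hmox1 (93.6 RPKM). Of the peroxiredoxins, Prdx1 was the highest and mitochondrial Prdx3 (26.7 RPKM) the lowest.

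**Figure D1:**
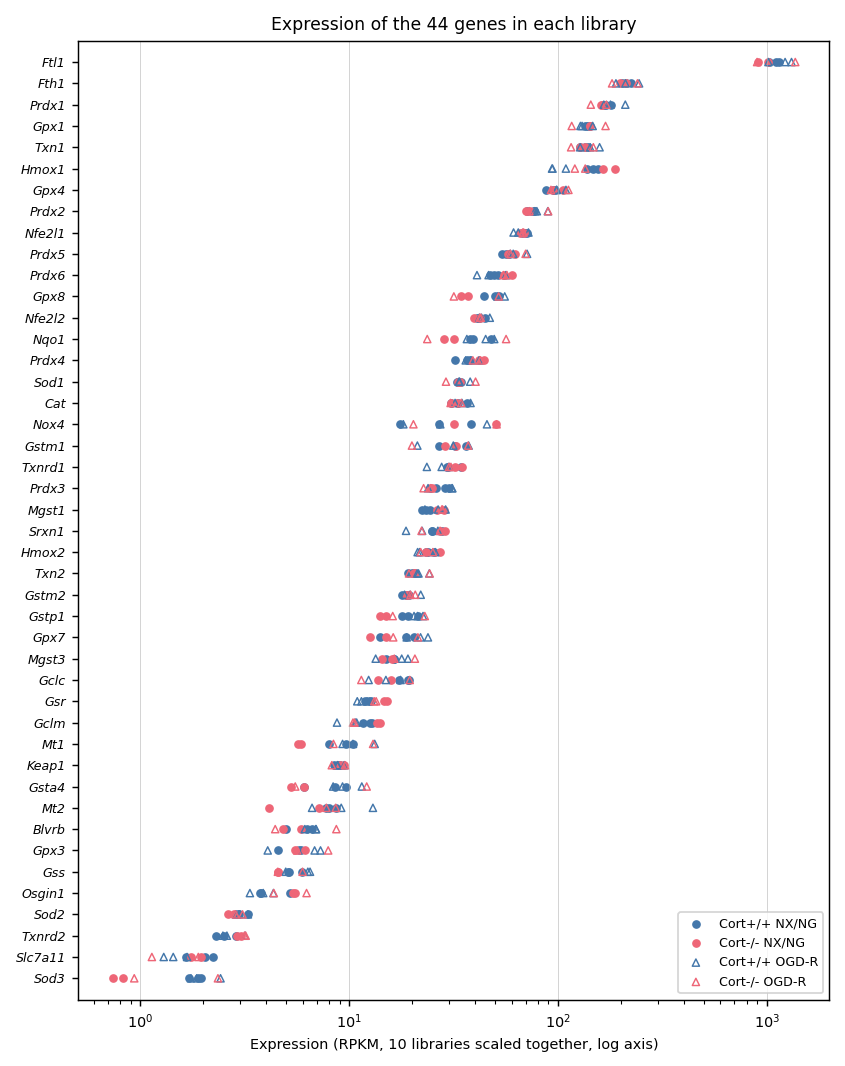
Level of each of the 44 genes in each of the 10 libraries (x axis, RPKM after scaling the libraries together, log axis), with genes ordered by their mean and symbols marking the 4 groups. Most genes moved little between libraries beside the range from Sod3 (1.64 RPKM) to Ftl1 (1103 RPKM), while Sod3, Mt2, Nox4 and Nqo1 were the most spread.

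The regulators were the steadiest members. Nfe2l2 was at 40.7, 40.1 and 43.4 RPKM in Cort+/+ replicates 1, 2 and 3 and at 38.6 and 41.3 RPKM in Cort-/- replicates 1 and 2 under NX/NG. After OGD-R it was at 44.1, 48.4 and 43.1 RPKM in Cort+/+ replicates 1, 2 and 3 and at 43.3 and 43.8 RPKM in Cort-/- replicates 1 and 3. The genotypes overlapped in both environments, with log2 fold changes (Cort-/- over Cort+/+) of -0.05 (SE 0.06) under NX/NG and -0.05 (SE 0.10) after OGD-R. Keap1 was at 8.66, 8.85 and 8.22 RPKM in Cort+/+ and at 9.16 and 8.80 RPKM in Cort-/- BECs under NX/NG. After OGD-R, Keap1 was at 9.71, 9.00 and 9.04 RPKM in Cort+/+ and at 8.47 and 9.79 RPKM in Cort-/- BECs, again overlapping. On the joint scale the highest library of Keap1 exceeded the lowest 1.16-fold, the smallest such ratio among the 44 members, followed by Nfe2l1 (1.18-fold) and Nfe2l2 (1.19-fold). The largest ratios belonged to Sod3 (3.29-fold), Mt2 (3.16-fold), Nox4 (2.89-fold) and Nqo1 (2.39-fold).

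Because many of the members are known targets of NRF2, the proximal promoters were searched for the core of the ARE (TGACNNNGC, either strand) in the 250 bases before each transcription start given by RefSeq (GRCm38.p6). Of 38 members with a promoter sequence, 7 held a match (18.4%), against 11.5% of 27025 genes. Enhancers, where many functional elements lie, and bases after the start were outside this window. A match is a description of letters and not evidence of binding. The 7 matches are shown because they place the element beside glutathione synthesis (Gclm), thioredoxin reduction (Txnrd1), peroxide removal (Prdx1), superoxide removal (Sod1), glutathione transfer (Mgst1), metal binding (Mt2) and NRF2 itself (Nfe2l2). Each is written 5′ to 3′ on the strand of the gene, with the match in capitals. They lie at chr3:122245413-122245441 (Gclm, plus strand), chr10:82859104-82859132 (Txnrd1, plus), chr4:116685456-116685484 (Prdx1, plus), chr16:90220696-90220724 (Sod1, plus), chr6:138140461-138140489 (Mgst1, plus), chr8:94172529-94172557 (Mt2, plus) and chr2:75704885-75704913 (Nfe2l2, minus).
Gclm: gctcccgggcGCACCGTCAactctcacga
Txnrd1: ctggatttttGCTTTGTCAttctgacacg
Prdx1: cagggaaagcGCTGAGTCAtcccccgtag
Sod1: gccaaggtggGCGTGGTCAgactcaggcc
Mgst1: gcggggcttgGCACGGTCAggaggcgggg
Mt2: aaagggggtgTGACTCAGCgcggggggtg
Nfe2l2: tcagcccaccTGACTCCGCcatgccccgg

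The first question of the design was whether cells that lack cortistatin, a neuropeptide that the study examines as a protector of the endothelial barrier, differ from Cort+/+ cells without injury. Under NX/NG, Cort-/- BECs had lower levels of Sod3, Mt1, Gpx8, Gstp1, Gclc, Nqo1 and Gss, and higher levels of Gsr, Hmox1, Prdx4, Prdx6 and Mgst1, all 12 without overlap. None of these differences passed the threshold of a false discovery rate (FDR) of 0.05 across all genes. With limma, 0 of 44 members and 0 of 14220 genes tested (0%) passed it. At an unadjusted p under 0.05 stood 12 members (27.3%), 5 higher and 7 lower, beside 13.2% of all genes tested (5.42% higher and 7.75% lower). The groups did not overlap for 21 members (47.7%), 9 higher and 12 lower, beside 32.7% of all genes tested (16.2% higher and 16.5% lower). The median log2 fold change was -0.05 over the members and 0.01 over all genes tested. Thus the members lay on both sides, and their shares stood above those of all genes by both counts. The members were chosen with earlier results of these data known, and were not matched to other genes by level. The counts also include Sod3, which passed the filter on low values only through the Cort+/+ group. The higher shares are therefore a description and no test of this gene system.

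Sod3, which removes superoxide in the extracellular space, had the largest log2 fold change and the lowest p of the members. It passed the filter on low values (1 RPKM in 2 libraries) only through the Cort+/+ group. Sod3 was at 1.90, 1.67 and 1.83 RPKM in the Cort+/+ libraries and at 0.715 and 0.7999 RPKM in the Cort-/- libraries, resting on 79 to 87 reads and on 33 to 38 reads. Both Cort-/- libraries lay below every Cort+/+ library, with group means of 0.757 ± 0.060 (SD, n = 2) and 1.80 ± 0.118 RPKM (SD, n = 3). The log2 fold change was -1.15 (SE 0.17, adjusted p = 0.194, limma). Sod2 was also lower in both Cort-/- libraries, by far less (log2 fold change -0.17, SE 0.10). Sod1 and catalase (Cat) overlapped, with log2 fold changes of 0.00 and -0.08.

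Metallothioneins bind zinc and copper and scavenge radicals. Mt1 was at 10.2, 9.47 and 7.79 RPKM in the Cort+/+ libraries and at 5.72 and 5.49 RPKM in the Cort-/- libraries. The groups were apart, with a log2 fold change of -0.69 (SE 0.13, adjusted p = 0.215, limma). Mt2 was at 7.77, 8.41 and 7.52 RPKM in Cort+/+ and at 3.99 and 6.96 RPKM in Cort-/- BECs, likewise not overlapping (log2 fold change -0.57, SE 0.23). The ferritin chains, which store iron, had log2 fold changes of -0.19 (Ftl1) and -0.06 (Fth1), so all 4 metal-binding members had negative values and 3 of them did not overlap. The 2 metallothionein genes lie side by side on chromosome 8, and their promoters are shown because Mt1 and Mt2 were the metal-binding members with the largest differences. The 250 bases before the start are given for Mt1 (chr8:94178839-94179088, plus strand) and Mt2 (chr8:94172368-94172617, plus strand), with the core of the metal response element (MRE, TGCACNC or TGCGCNC on either strand) in capitals.
Mt1: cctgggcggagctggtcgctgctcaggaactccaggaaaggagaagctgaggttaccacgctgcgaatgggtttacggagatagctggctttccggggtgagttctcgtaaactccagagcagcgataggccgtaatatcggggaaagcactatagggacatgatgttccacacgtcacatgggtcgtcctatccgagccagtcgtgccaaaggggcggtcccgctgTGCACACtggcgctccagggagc
Mt2: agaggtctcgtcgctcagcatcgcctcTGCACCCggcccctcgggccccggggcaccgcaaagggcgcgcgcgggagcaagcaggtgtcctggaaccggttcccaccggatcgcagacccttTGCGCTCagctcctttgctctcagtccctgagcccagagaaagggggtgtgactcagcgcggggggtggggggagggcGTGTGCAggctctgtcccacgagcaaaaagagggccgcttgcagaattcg

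The window of Mt1 held 1 match and that of Mt2 held 3. The start differs between annotations, since the GENCODE start of Mt1 (94179082) lies within its window and that of Mt2 (94172664) beyond its window. Bases after the starts used here were not searched, so these counts do not describe the whole promoters. An MRE core was found in 10 of 38 member promoters (26.3%) and in 23.8% of 27025 genes, so it was about as frequent among the members as elsewhere.

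Of the 5 glutathione peroxidases, only Gpx8, an enzyme of the endoplasmic reticulum, had an unadjusted p under 0.05. Gpx8 was at 50.9, 48.9 and 43.0 RPKM in the Cort+/+ libraries and at 33.2 and 36.0 RPKM in the Cort-/- libraries, which lay below all of them (log2 fold change -0.46, SE 0.09, adjusted p = 0.248, limma). Gpx7, of the same compartment, had a log2 fold change of -0.36, with overlapping groups. Gpx1 was higher in both Cort-/- libraries by a log2 fold change of 0.04 (SE 0.05). Gpx3 and Gpx4 overlapped, with log2 fold changes of 0.11 and 0.10.

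The enzymes that make and recycle glutathione lay on both sides. Gsr, the reductase that regenerates glutathione, was at 11.6, 12.38 and 12.2 RPKM in the Cort+/+ libraries and at 14.3 and 14.8 RPKM in the Cort-/- libraries. Both Cort-/- libraries were the highest (log2 fold change 0.27, SE 0.06, adjusted p = 0.264, limma). Gclc, the catalytic subunit of the ligase that makes γ-glutamylcysteine, was at 18.7, 18.8 and 16.9 RPKM in Cort+/+ and at 15.4 and 13.3 RPKM in Cort-/- BECs. Its groups were apart in the other direction (log2 fold change -0.34, SE 0.09, adjusted p = 0.296, limma). The modifier subunit of the same ligase, Gclm, was higher in both Cort-/- libraries (log2 fold change 0.16), and glutathione synthetase Gss was lower in both (log2 fold change -0.24, SE 0.09).

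Among the glutathione transferases, Gstp1 was at 20.9, 18.8 and 17.4 RPKM in the Cort+/+ libraries and at 14.6 and 13.7 RPKM in the Cort-/- libraries. Gstp1 did not overlap between genotypes (log2 fold change -0.42, SE 0.09, adjusted p = 0.265, limma), and it shares 36.1% of its 40-base words with other genes, chiefly Gstp2, so its count is uncertain. The microsomal transferase Mgst1 was higher (log2 fold change 0.22), and Gstm1, Gstm2, Gsta4 and Mgst3 overlapped. Of the targets that act on quinones and heme, Nqo1, a quinone reductase, was lower (log2 fold change -0.46, SE 0.13). Hmox1 was at 144, 134 and 151 RPKM in the Cort+/+ libraries and at 182 and 159.6 RPKM in the Cort-/- libraries, above all of them (log2 fold change 0.26, SE 0.09). Osgin1, an oxidative stress-induced growth inhibitor, was also higher without overlap (log2 fold change 0.36). The peroxiredoxins Prdx4 (log2 fold change 0.28) and Prdx6 (0.22) were higher, and Prdx1 (-0.10) and Prdx3 (-0.20) were lower, all 4 without overlap. In the thioredoxin system, only Txnrd2 did not overlap (log2 fold change 0.20).

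Markers of other cells also differed between the genotypes under NX/NG. The summed level of 6 fibroblast markers was 193 to 279 RPKM in Cort+/+ and 83.6 to 121 RPKM in Cort-/- BECs, with 3 of 6 lower without overlap (Col1a1, Col1a2 and Col3a1), 1 higher (Pdgfra) and Lum at no more than 3 reads in any library. The 6 pericyte markers summed to 17.9 to 21.4 RPKM in Cort+/+ and to 7.59 to 10.2 RPKM in Cort-/- BECs, with 3 of 6 lower (Cspg4, Pdgfrb and Rgs5) and Kcnj8 and Abcc9 at no more than 3 reads. The 6 macrophage and microglia markers summed to 2.60 to 3.15 RPKM in Cort+/+ and to 3.84 to 4.02 RPKM in Cort-/- BECs, with 1 of 6 higher without overlap (Cd68) and Ptprc, Itgam and Tnf at no more than 3 reads. The sums of the endothelial markers (870 to 1141 and 1137 to 1276 RPKM) and of the smooth muscle markers (1449 to 1777 and 1299 to 1556 RPKM) overlapped. Of the 8 endothelial markers, 1 was higher in Cort-/- BECs without overlap (Erg). The log2 fold change was above 0 for 7 and below 0 for 1 of them (median 0.288). The part of these cells in the differences of Sod3, Mt1 and Gpx8 was not tested. The number of members at an unadjusted p under 0.05 was 7 without Cort-/- replicate 2 (6.76% of all genes) and 16 without Cort+/+ replicate 3 (18% of all genes), and 8 or 9 without each of the others (7.74% to 11.5% of all genes).

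**Figure D2:**
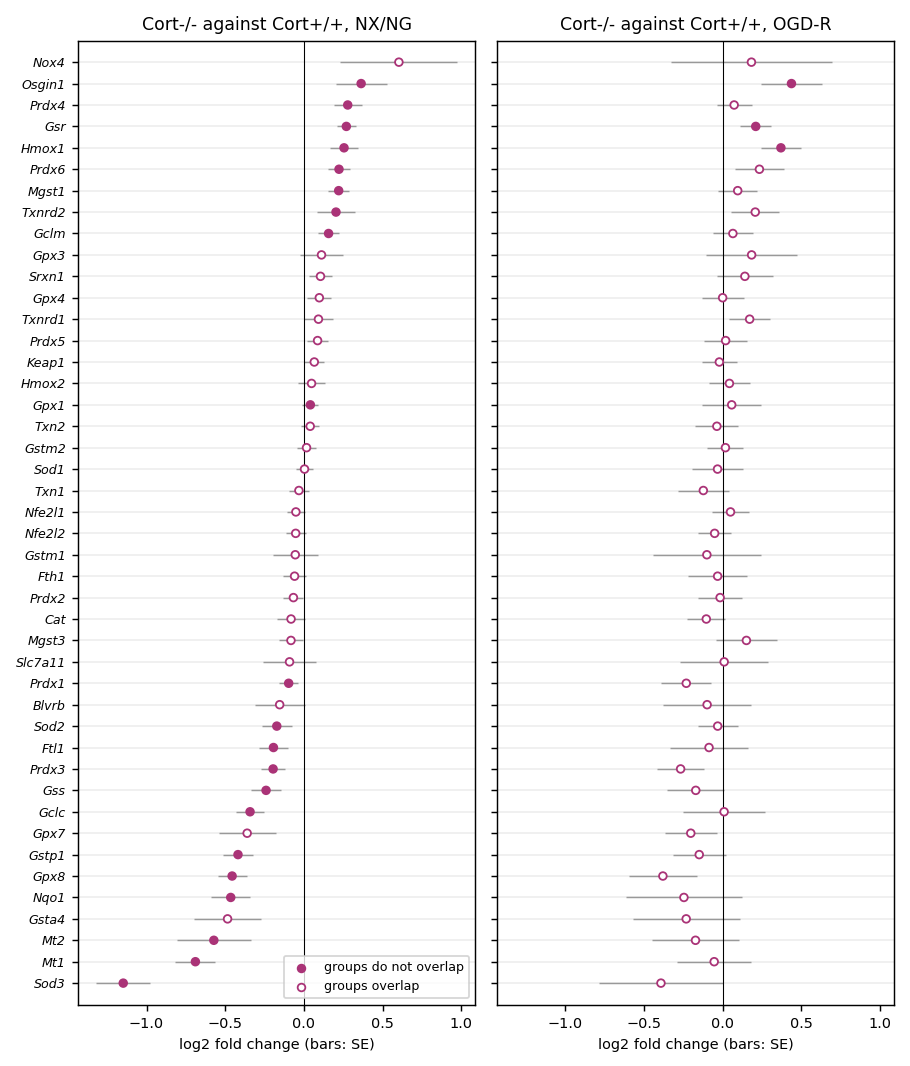
Log2 fold change of Cort-/- over Cort+/+ BECs for the 44 genes (x axis, bars are SE) under NX/NG on the left and after OGD-R on the right, in the order of the NX/NG values. Filled points mark genes whose groups did not overlap, 21 under NX/NG and 3 after OGD-R (Hmox1, Osgin1 and Gsr).

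The second comparison asked the same of injured cells. After OGD-R, Hmox1, Osgin1 and Gsr were higher in Cort-/- than in Cort+/+ BECs without overlap, and no member was lower without overlap. With limma, 0 of 44 members and 0 of 14325 genes (0%) passed the FDR. Only Hmox1 had an unadjusted p under 0.05, 1 of 44 members (2.27%), beside 3.72% of all genes tested (1.48% higher and 2.24% lower). The 3 members that did not overlap made 6.82%, against 16.2% of all genes tested (7.94% higher and 8.22% lower), so their number was below the background. The median log2 fold change was -0.02 over the members and -0.01 over all genes. Of the markers, 2 of 5 epithelial (Krt18 and Cdh1) were higher in Cort-/- BECs without overlap. Lower without overlap were 2 of 6 fibroblast (Lum and Col3a1), 1 of 6 pericyte (Vtn) and 1 of 8 endothelial markers (Flt1). The part of these cells in the differences of the members was not tested.

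Hmox1, which opens the heme ring and releases iron and carbon monoxide, was at 96.1, 112 and 96.6 RPKM in Cort+/+ replicates 1, 2 and 3 and at 124 and 139 RPKM in Cort-/- replicates 1 and 3. Both Cort-/- libraries lay above all Cort+/+ libraries (log2 fold change 0.37, SE 0.13, adjusted p = 0.999, limma). Osgin1 was at 3.43, 4.45 and 3.97 RPKM in Cort+/+ and at 6.41 and 4.47 RPKM in Cort-/- BECs. The lower Cort-/- library thus stood only just above the highest Cort+/+ library (log2 fold change 0.44, SE 0.20). Gsr was at 11.7, 12.5 and 11.2 RPKM in Cort+/+ and at 13.8 and 13.5 RPKM in Cort-/- BECs, with a log2 fold change of 0.21 (SE 0.10).

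The next members in the order of p overlapped. Prdx3, the mitochondrial peroxiredoxin, was at 24.5, 31.86 and 31.98 RPKM in Cort+/+ and at 23.3 and 25.2 RPKM in Cort-/- BECs (log2 fold change -0.27, SE 0.15). Gpx8 was at 53.4, 52.6 and 57.0 RPKM in Cort+/+ and at 32.5 and 53.4 RPKM in Cort-/- BECs, so that replicate 1 alone was low (log2 fold change -0.38, SE 0.22). Prdx6, a peroxiredoxin that also acts on phospholipids, was at 47.7, 57.8 and 42.0 RPKM in Cort+/+ and at 56.2 and 58.5 RPKM in Cort-/- BECs (log2 fold change 0.23, SE 0.16).

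The 2 Cort-/- libraries after OGD-R were far apart for many members. Nqo1 was at 24.3 RPKM in replicate 1 and 57.9 RPKM in replicate 3, Gclc at 11.7 and 20.005 RPKM, Gstm1 at 20.5 and 38.1 RPKM and Sod3 at 0.958 and 2.41 RPKM. Their marker sums differed too, with 42.3 RPKM in replicate 1 and 20.2 RPKM in replicate 3 for the epithelial markers. These sums were 1351 and 1008 RPKM for the endothelial and 995 and 1482 RPKM for the smooth muscle markers. The epithelial marker Krt8 was at 11.9 and 0.0749 RPKM, whereas Krt19 was at 5.38 and 11.4 RPKM. The part of these cells in the spread of the members was not tested. Replicate 3 is one of the libraries low in ribosomal RNA. Without both such libraries, 8 members had an unadjusted p under 0.05, and 7 of them were lower in Cort-/- BECs (Gpx8, Gsta4, Nqo1, Blvrb, Prdx3, Sod3 and Gstp1) and 1 was higher (Osgin1), while Hmox1 had a log2 fold change of 0.25. That fit rests on 1 Cort-/- library, and in it 1025 of 13810 genes (7.42%) had an unadjusted p under 0.05. Without Cort-/- replicate 3 alone the number of members was 7 (6.44% of all genes), without Cort-/- replicate 1 it was 2 (3.21%), without Cort+/+ replicate 2 it was 2 (2.48%) and without Cort+/+ replicate 3 it was 0 (3.59%). Without Cort+/+ replicate 1 it was 1 (4.4% of all genes), namely Prdx3 in place of Hmox1. With the replicate number, which the labels share, as a block, the number was 0 (1.73% of all genes). Whether equal numbers mark a pairing could not be told.

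The genotype comparisons under NX/NG and after OGD-R share no library. The sign of the log2 fold change was the same in both for 36 of 44 members (81.8%) and for 66.4% of 13889 genes. This was not recomputed without the libraries low in ribosomal RNA. Hmox1, Osgin1 and Gsr were higher without overlap in both environments, 6.82% of the members, against 3.53% of all genes. No member was lower without overlap in both. Their log2 fold changes under NX/NG and after OGD-R were 0.26 and 0.37 for Hmox1, 0.36 and 0.44 for Osgin1 and 0.27 and 0.21 for Gsr.

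**Figure D3:**
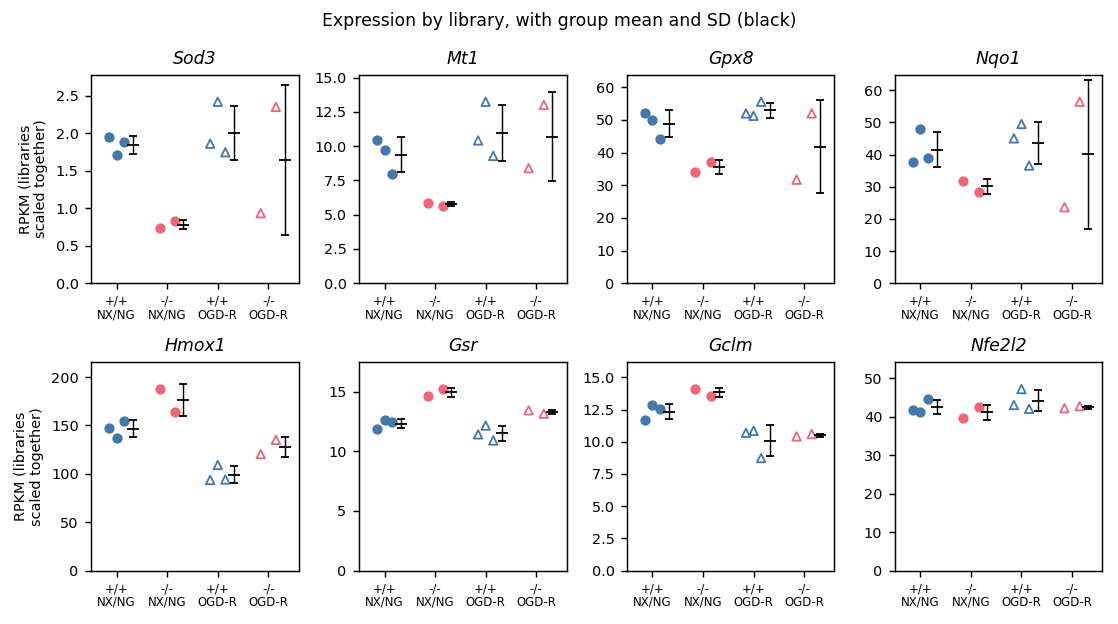
Level of 8 genes in each library (y axis, RPKM after scaling the libraries together), with one point per library and the group mean and SD in black. Hmox1 and Gclm were lower after OGD-R in both genotypes, Hmox1 and Gsr were higher in Cort-/- BECs in both environments, and the 2 Cort-/- OGD-R libraries differed widely for Sod3, Mt1, Gpx8 and Nqo1.

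The response to OGD-R was then compared within each genotype on the joint scale. The environment coincides with the deposited table, and the tables were normalised separately, so the reads behind both were recovered and scaled together. A difference in handling between the tables cannot be told apart from the treatment. In Cort+/+ BECs, Hmox1 and both subunits of glutamate-cysteine ligase were lower after OGD-R than under NX/NG. With limma, 0 of 44 members and 0 of 14450 genes (0%) passed the FDR. At an unadjusted p under 0.05 stood 3 members (6.82%), all lower, beside 6.64% of all genes tested (4.1% higher and 2.53% lower). The groups did not overlap for 6 members (13.6%), 4 higher and 2 lower, beside 12.7% of all genes (7.48% higher and 5.18% lower). By both counts the share of the members was thus close to that of all genes. The median log2 fold change was 0.08 over the members and 0.00 over all genes, with 30 of 44 members above 0, beside 51.2% of all genes.

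Hmox1 was at 148, 137 and 155 RPKM in the NX/NG libraries and at 93.6, 109 and 94.1 RPKM in the OGD-R libraries. Every OGD-R library lay below every NX/NG library (log2 fold change -0.57, SE 0.09, adjusted p = 0.407, limma). Gclm was at 11.7, 12.8 and 12.5 RPKM under NX/NG and at 10.7, 10.9 and 8.74 RPKM after OGD-R, also without overlap (log2 fold change -0.29, SE 0.10). Gclc was at 19.2, 19.2 and 17.4 RPKM under NX/NG and at 17.6, 14.98 and 12.39 RPKM after OGD-R. Its lowest NX/NG library was below the highest OGD-R library (log2 fold change -0.32, SE 0.13). Slc7a11, which imports the cystine for glutathione, was at 2.23, 2.04 and 1.66 RPKM under NX/NG and at 1.67, 1.29 and 1.44 RPKM after OGD-R, barely overlapping (log2 fold change -0.40, SE 0.17).

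The members that were higher without overlap were Txn2, Prdx5, Gpx4 and Prdx2. The mitochondrial thioredoxin Txn2 was at 20.5, 19.1 and 19.9 RPKM under NX/NG and at 21.2, 24.2 and 21.5 RPKM after OGD-R (log2 fold change 0.17, SE 0.08). Prdx5 was at 53.7, 58.1 and 56.4 RPKM under NX/NG and at 61.0, 71.1 and 59.1 RPKM after OGD-R (log2 fold change 0.18, SE 0.09). Gpx4, which reduces lipid peroxides, had a log2 fold change of 0.14 and Prdx2 of 0.13. None of these 4 had an unadjusted p under 0.05, and Txnrd1 (log2 fold change -0.21), Srxn1 (-0.21) and Gpx1 (-0.03) of the same systems had negative values. With scaling to total reads, the members under that p were 1 higher (Mgst1) and 1 lower (Hmox1), and the median log2 fold change was 0.14 over the members and 0.066 over all genes, of which 3.77% were higher and 0.865% lower. Without OGD-R replicate 1, the low ribosomal RNA library, the members at an unadjusted p under 0.05 numbered 9, beside 9.13% of all genes. Of these 5 were lower (Hmox1, Gclc, Gclm, Slc7a11 and Txnrd1) and 4 higher (Mgst1, Gpx3, Mt2 and Mgst3). Without NX/NG replicate 2 the number was 1 (4.72% of all genes).

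In Cort-/- BECs, Hmox1 and Gclm were again lower and Mt1 was higher after OGD-R. Of the 44 members 43 were tested, since Sod3 was under 1 RPKM in 3 of the 4 libraries. With limma, 0 of 43 members and 0 of 13998 genes (0%) passed the FDR. At an unadjusted p under 0.05 stood 3 members (6.98%), 1 higher and 2 lower, beside 3.85% of all genes tested (2.09% higher and 1.76% lower). The groups of 2 libraries did not overlap for 12 members (27.9%), 8 higher and 4 lower, beside 34.2% of all genes (16.1% higher and 18.1% lower). The share of members without overlap was thus below that of all genes. The median log2 fold change was 0.03 over the members and -0.01 over all genes. With scaling to total reads, 1 member stood under that p, Mt1, which was higher, and the medians were 0.12 and 0.081, with 2.09% of all genes higher and 0.941% lower.

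Gclm was at 14.1 and 13.6 RPKM under NX/NG and at 10.4 and 10.6 RPKM after OGD-R in Cort-/- BECs, with the replicates close together (log2 fold change -0.39, SE 0.09, adjusted p = 0.938, limma). Hmox1 was at 188 and 164 RPKM under NX/NG and at 120.4 and 135 RPKM after OGD-R (log2 fold change -0.46, SE 0.14). Mt1 was at 5.88 and 5.66 RPKM under NX/NG and at 8.40 and 13.0 RPKM after OGD-R. The groups were apart, with the OGD-R libraries also far from each other (log2 fold change 0.85, SE 0.23, adjusted p = 0.938, limma). Mt2 was at 4.11 and 7.17 RPKM under NX/NG and at 8.62 and 7.77 RPKM after OGD-R, with an unadjusted p over 0.05 (log2 fold change 0.58, SE 0.29). Gpx7, at 14.9 and 12.5 RPKM under NX/NG and at 16.2 and 21.3 RPKM after OGD-R, and Gstp1, at 15.1 and 14.1 RPKM and at 16.2 and 23.0 RPKM, were higher in both OGD-R libraries. Their log2 fold changes were 0.44 (SE 0.18) and 0.40 (SE 0.20), again with an unadjusted p over 0.05.

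Markers of other cells differed in the same comparison. The sum of the fibroblast markers was 83.6 to 121 RPKM under NX/NG and 200 to 252 RPKM after OGD-R, each in its own table, and all 3 of the 6 that were tested had an unadjusted p under 0.05 (Col1a1, Col1a2 and Col3a1, log2 fold changes 0.73 to 1.31). The sum of the pericyte markers was 7.59 to 10.2 RPKM and 15.3 to 17.6 RPKM, and 2 of 3 tested stood under that p, both higher (Cspg4 and Pdgfrb). The smooth muscle marker Myh11 was lower in Cort-/- (log2 fold change -1.26) and in Cort+/+ BECs (-1.05), as was Cnn1 in Cort+/+ BECs (-0.80). The part of these cells in the differences of Mt1, Hmox1 and Gclm was not tested.

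The number of members under that p, like that of all genes, moved with the library left out. Without OGD-R replicate 3, low in ribosomal RNA, 8 members (4.56% of all genes) had an unadjusted p under 0.05, 2 higher (Mt1 and Gpx3) and 6 lower (Gstm1, Gclm, Hmox1, Srxn1, Gpx1 and Nqo1). Without OGD-R replicate 1 there were 15 (17% of all genes), of which 12 were higher (Mt1, Nqo1, Gsta4, Gstp1, Gpx8, Gpx7, Blvrb, Mgst3, Ftl1, Prdx2, Gss and Gclc) and 3 lower (Gclm, Nox4 and Hmox1). Nqo1 and Gclc thus took the direction of the library that was kept, whereas Hmox1, Gclm and Mt1 kept theirs. Without NX/NG replicate 1 or 2 the number was 1 (3.05% and 2.34% of all genes).

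**Figure D4:**
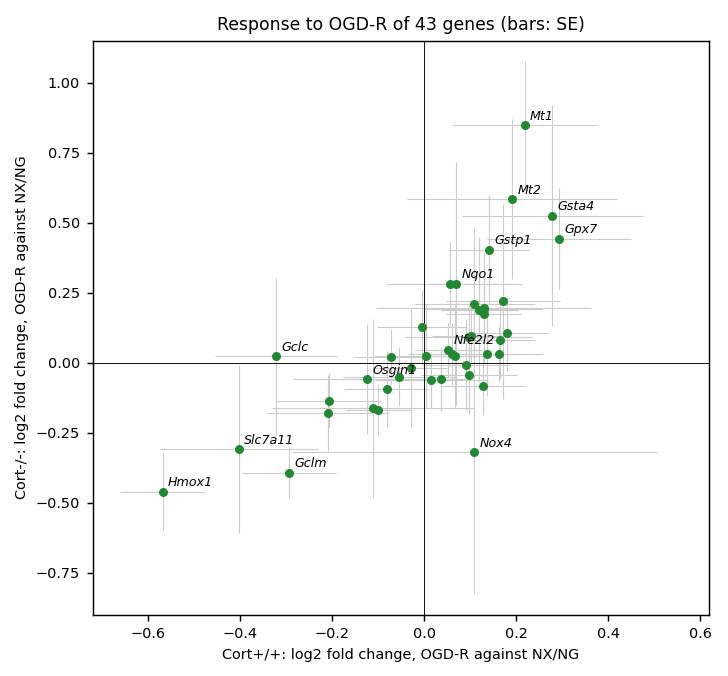
Log2 fold change of OGD-R over NX/NG in Cort+/+ BECs (x axis) and in Cort-/- BECs (y axis) for the 43 genes tested in both, with SE bars. Hmox1, Gclm and Slc7a11 lie in the lower left, Mt1, Mt2, Gsta4, Gpx7 and Gstp1 in the upper right, and 34 of 43 genes have the same sign in both genotypes.

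The responses of the 2 genotypes, which share no library, had the same sign for 34 of 43 members (79.1%) and for 65.6% of 13798 genes. Both responses span the same separately normalised tables, and each OGD-R group holds 1 library low in ribosomal RNA. Without these libraries the median of the members was 0.105 in Cort+/+ and -0.095 in Cort-/- BECs, against 0.081 and 0.029 with them. The agreement in sign was not recomputed without them. Hmox1 and Gclm were lower without overlap in both genotypes, 4.65% of the members, against 2.49% of all genes. The difference between the responses was tested with an interaction term over all 4 groups. With limma, 0 of 44 members and 0 of 14855 genes (0%) passed the FDR, and 0 of 44 members had an unadjusted p under 0.05 beside 1.78% of all genes (0.996% higher and 0.788% lower). The lowest unadjusted p of a member belonged to Mt1 (interaction 0.63 on the log2 scale, SE 0.29, adjusted p = 1.00, limma), which was lower in Cort-/- BECs under NX/NG and at the level of Cort+/+ BECs after OGD-R (10.7 ± 3.26 against 10.98 ± 2.03 RPKM on the joint scale, SD, n = 2 and n = 3). Sod3 followed (0.75, SE 0.46). In the same fit 2 of 4 fibroblast markers (Col1a1 and Col1a2) and 2 of 3 pericyte markers (Cspg4 and Pdgfrb) had an unadjusted p under 0.05, all higher, with medians over the markers tested of 0.67 and 0.76, and their part in the values of Mt1 and Sod3 was not tested. Hmox1, with a genotype difference and a lower level after OGD-R in both arms, had an interaction of 0.11 (SE 0.15). Without Cort-/- OGD-R replicate 1 the number of members at an unadjusted p under 0.05 was 7 (5.01% of all genes), all higher (Sod3, Mt1, Gstp1, Nqo1, Gclc, Gpx8 and Gsta4), and without both libraries low in ribosomal RNA it was 2 (3.99% of all genes), both lower (Txn1 and Sod1).

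Some members varied widely between libraries of the same group. Nox4 and Gstm1 were singled out for this after their values had been seen. On the joint scale, Nox4 was at 50.8 RPKM in Cort-/- OGD-R replicate 1, 50.7 RPKM in Cort-/- NX/NG replicate 2, 45.7 RPKM in Cort+/+ OGD-R replicate 3 and 38.3 RPKM in Cort+/+ NX/NG replicate 3. In the other 6 libraries Nox4 lay between 17.6 and 31.7 RPKM. The 4 libraries high in Nox4, 1 from each group, were the 4 lowest in Gstm1, a cytosolic glutathione transferase (19.97 to 28.7 RPKM, against 31.5 to 37.3 RPKM in the others). Only Nqo1, Gclc, Gsta4, Slc7a11 and the biliverdin reductase Blvrb were picked as further members to be ordered in this way. Each had 3 of its 4 lowest values in these libraries. The remaining members and all genes were not ordered, so no background share stands beside this. The same 4 libraries held 3 of the 4 lowest sums of the smooth muscle markers (969 to 1487 RPKM, against 1444 to 1818 RPKM) and 3 of the 4 lowest of the fibroblast markers. They held 3 of the 4 highest sums of the endothelial markers (1101 to 1316 RPKM, against 890 to 1169 RPKM). The part of the make-up of the cultures in the levels of Nox4 and Gstm1 was not tested.

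**Figure D5:**
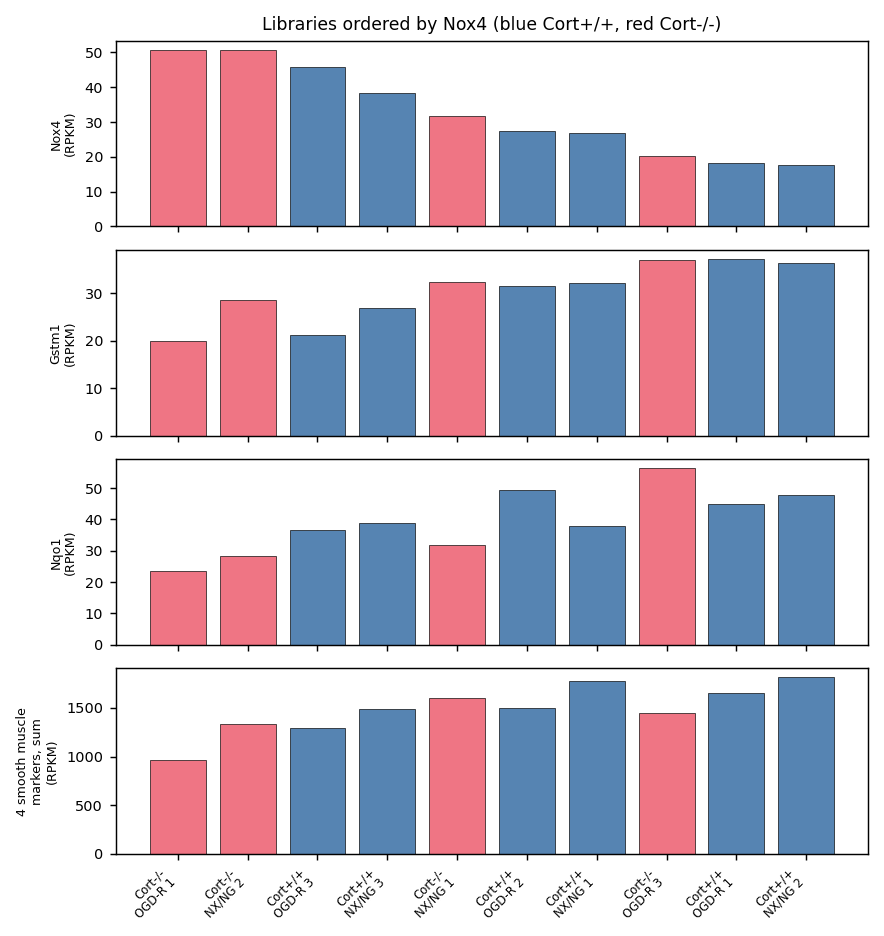
Levels of Nox4, Gstm1, Nqo1 and the sum of 4 smooth muscle markers (y axes, RPKM after scaling the libraries together) in the 10 libraries, ordered from the highest to the lowest Nox4 and coloured by genotype. The 4 libraries on the left, 1 of each group, have Nox4 at 38.3 RPKM or more and the 4 lowest levels of Gstm1.

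Summed over the 44 genes, the level on the joint scale ranged from 2501 RPKM in Cort-/- OGD-R replicate 1 to 3321 RPKM in Cort-/- OGD-R replicate 3, and Ftl1 alone held a large share of it. The members took 0.565% to 0.795% of the reads on genes, and 0.625% to 0.796% once the ribosomal RNA gene Rn18s-rs5 was left out. The 2 extremes were thus the replicates of a single group.

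Genes of the same pathways that are no members were followed by list, beside shares of all genes at an unadjusted p under 0.05 of 13.2% and 3.72% in the genotype comparisons (NX/NG and OGD-R) and of 6.64% and 3.85% in the response to OGD-R (Cort+/+ and Cort-/-). Of 30 partners and further targets of NRF2, 26 were tested in the genotype comparisons, and under NX/NG 1 stood under an unadjusted p of 0.05 (G6pdx, the first enzyme of the pentose phosphate pathway, log2 fold change -0.20) and 0 after OGD-R. In the response to OGD-R, 1 of 26 did in Cort+/+ (Gstm4, log2 fold change 0.58) and 0 of 25 in Cort-/- BECs. Of 18 further redox enzymes tested, 4 stood under that p in the genotype comparison under NX/NG, 2 higher (Oxr1, 0.29, and Ggct, 0.50) and 2 lower (Glrx, -0.31, and Selenow, -0.23). Chac1, which degrades glutathione, was higher in Cort-/- BECs after OGD-R (0.39) and lower after OGD-R in Cort+/+ BECs (-0.34). Of 12 metal-handling genes tested, the iron exporter Slc40a1 (-0.30) and the ferroxidase Cp (-0.26) were lower in Cort-/- BECs under NX/NG, Cp also after OGD-R (-0.40), and the zinc exporter Slc30a1 was lower after OGD-R in Cort+/+ BECs (-0.26). Among the oxidant sources, of which 5 or 6 of 15 were tested, the NOX partner Cyba was higher in Cort-/- BECs under NX/NG (0.30) and higher after OGD-R in Cort+/+ BECs (0.22), and Maoa was lower in Cort-/- BECs under NX/NG (-0.14). None of these passed the FDR.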

How the data were processed

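RNA-seq values of 10 libraries were used. The authors deposited RPKM in 1 table per environment, each normalised apart from the other. The aligner, annotation and genome build are not given in the sources used here. RPKM times gene length was within 0.05 of whole multiples of 1 step for 100% of values, which gave the reads per gene. Authors' columns of expression categories (10) were not used. Genotype comparisons used log2(RPKM + 0.1) as deposited. For the response to OGD-R and the interaction, the recovered reads of 27321 genes were put on a common scale with trimmed-mean (TMM) factors of 0.907 to 1.14. Genes that reached 1 RPKM in 2 or more libraries of a comparison were fitted with limma 3.58.1 (trend on mean expression, R 4.3.3), only the groups compared being in the fit, and p-values were adjusted by Benjamini-Hochberg at 0.05 over all genes tested. Fold changes on this scale understate those of genes at low level, such as Sod3. All mapped libraries entered, and 5 comparisons were made. The fit was tested on simulated reads with a common spread. That spread was set and not estimated from these libraries, so whether the counts below hold for them, above all after OGD-R, was not tested. Of genes changed 2-fold it called 15 of 97 in the genotype comparison under NX/NG and 9 of 111 after OGD-R. For the response to OGD-R it called 33 of 86 in Cort+/+ and 10 of 109 in Cort-/- BECs, and for the interaction 0 of 96. Of genes changed 4-fold it called 101 of 103, 84 of 89, 108 of 114, 76 of 91 and 60 of 104 in the same order. A 2-fold change could therefore often miss the FDR. The members and lists were chosen with earlier results of these data known. Named with every library's value are the 6 members of lowest p in each pairwise comparison, with Nfe2l2 and Keap1. Same-numbered libraries did not deviate together (correlations -0.39 to 0.11 over 14855 genes). Deviations within a Cort-/- group of 2 libraries mirror each other, and the Cort-/- groups were not checked against each other. The check could therefore not exclude a pairing. Replicate numbers were taken as names. No 2 libraries of a group agreed within sampling noise. Over 20% of 40-base words were shared with other genes for 5 members (Ftl1, Gpx4, Gstp1, Sod2 and Gstm1), whose reads are uncertain. Positions are from GENCODE on GRCm38 and 0 members lie within 10 Mb of Cort. By the figure legend of the paper, each replicate is a pool from 3 mice. The sources used here do not say whether NX/NG and OGD-R cultures came from the same pools. Python 3.11.15 was used for tables and drawings.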

Additional observations from a re-analysis of the deposited data

How the results depend on the processing

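No member passed the FDR in any comparison with limma, and this held under every alternative run but one. With limma-voom on the recovered reads and no filter on low values, an alternative added after the data were seen, Sod3 passed in the genotype comparison under NX/NG (1 member, log2 fold change -1.23, adjusted p = 0.0470). Over its alternatives Sod3 had adjusted p from 0.0470 to 0.556. Counts over all genes moved from 0 more often. Under NX/NG, limma-voom called 53 genes, limma-voom without a filter 124 and a fit of all groups together 3. After OGD-R these were 1, 5 and 4. For the response to OGD-R in Cort+/+ BECs, 9 genes were called without a filter and 1 by limma-voom without a filter, and in Cort-/- BECs 1 gene by the fit of all groups. For the interaction 3 genes were called without a filter, and leaving out a library gave 0 to 2. The cause was not tested. The interaction of Mgst3 reversed to -0.091 without the libraries low in ribosomal RNA, and that of Gclc ranged from -0.039 to 0.73 over the libraries left out. Where 1 library is left in a group, it is assumed to vary like the others. With the replicate number as a block, the members at an unadjusted p under 0.05 numbered 14 under NX/NG, 0 after OGD-R, 4 for the response in Cort+/+ BECs and 0 for the interaction, and no member passed the FDR. No paired analysis was possible because the Cort-/- groups share 1 number, for the response in Cort-/- BECs. Depth limits the lowest members, since Sod3 and Mt2 rest on at most 123 and 87 reads per library.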
